A study of Homo sapiens
Mus musculus with 2 samples.

Results

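Notch1, Notch2, Dll1, Dll4, Jag1, Nrarp, Hes1 and Hes6, a set of 8 genes of the Notch pathway, were followed through the cells of the mouse colonic crypt. The genes were chosen by name, and all 8 were listed, with UMIs, among the 25504 genes of both libraries. The cells came from 1 untreated wild-type C57Bl6 mouse and were profiled as 2 libraries, replicates 1 and 2, which hold different cells of that animal. The colonic epithelium had been released with EDTA and digested with collagenase and DNase, viable cells had been enriched on magnetic columns, and K562 cells, a human leukaemia line, had been mixed in before droplets were formed with inDrop. Values are UMI counts, where a UMI is a random tag that lets copies of 1 captured RNA molecule be counted once, and no K562 values were analysed here. The libraries form 1 group, so classes of cells were compared and conditions were not. Every p-value rests on 2 libraries of 1 animal. In the main fit it measures how far class differences vary between those libraries, after their mean difference is removed. That spread may be technical.

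Notch is a receptor that is switched on by ligands of the Delta and Jagged families on a neighbouring cell. Ligand binding releases the intracellular part of the receptor, which enters the nucleus, joins RBPJ and turns on genes such as Hes1 and Nrarp. In the intestinal crypt, active Notch keeps progenitors on the absorptive path through HES1, a repressor of Atoh1, whereas cells that escape the signal express Atoh1, present Delta ligands and become secretory. This exchange is known as lateral inhibition.

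Replicate 1 held 1738 barcodes with a median of 4615.5 UMIs and replicate 2 held 664 barcodes with a median of 4756.5 UMIs. After 120 likely doublets had been left out, 2282 cells remained. The median share of mitochondrially encoded UMIs was 4.43% in replicate 1 and 8.91% in replicate 2. The columns carry numbers rather than barcode sequences, so barcodes shared between libraries could not be counted by sequence. Between the libraries, 0 pairs of barcodes had identical counts. Cells were grouped with genes that did not include the 8 Notch genes, the other pathway genes or the secretory factors named below. Genes that act together can fall on both sides of that division, so the classes are not independent of the pathway.

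Dividing and stem-like cells of the crypt separated into 4 sub-clusters. Secretory progenitor-like cells (66 in replicate 1 and 31 in replicate 2) were led by Reg4, Ccl6, Spink4, Muc2 and Agr2, genes of mucus-producing and deep crypt secretory cells, and carried cycling markers. Crypt progenitor-like cells (101 and 27) were led by Cdca7, Cd44, Smoc2, Axin2 and Ascl2, genes of the Wnt-driven crypt base. The other two, 1 led by Reg3b and Slc5a8 (73 and 16 cells) and 1 led by Car1 and Krt20 (39 and 18), are called here by those genes. The remaining epithelial classes with enough cells to test were deep crypt secretory-like (266 and 74), the Reg4-led cells of the colonic crypt base, goblet-like (272 and 68) and colonocyte-like (503 and 156). These made 7 classes in all.

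The summed cycling markers (11 of 12 listed were in the files) were at 5028 and 4800 UMIs per 1000000 UMIs of the class (CPM) in secretory progenitor-like cells of replicates 1 and 2. In crypt progenitor-like cells they were at 3728 and 2950 CPM, so both classes held dividing cells. The 10 stem markers summed to 1297 and 1043 CPM in the former and to 2309 and 2008 CPM in the latter. The 9 goblet markers in the files summed to 16312 and 20797 CPM in secretory progenitor-like cells, against 3109 and 1858 CPM. The part of these differences in cycling and stem state in the results below was not tested. A cell with both secretory and cycling markers could be a pair of cells. The median depth of secretory progenitor-like cells was 5892.5 and 8907 UMIs, that of crypt progenitor-like cells 6302 and 8222 UMIs and that of deep crypt secretory-like cells 5554.5 and 7585.5 UMIs. The part of remaining doublets was not tested. CPM is not TMM-scaled, whereas fold changes are, so they can differ.

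Between the progenitor classes, the Delta ligands were higher on the secretory side and the receptor Notch1 and the target Hes1 on the crypt side. Dll1 and Dll4 rose and Notch1 and Hes1 fell in secretory progenitor-like against crypt progenitor-like cells, 4 of the 8 genes. Over all 7982 genes tested, 3.96% passed the same test (edgeR's quasi-likelihood test, Benjamini-Hochberg adjusted p of at most 0.05), with 2.97% higher and 0.99% lower in secretory progenitor-like cells. The other 4 genes, Jag1, Notch2, Nrarp and Hes6, did not pass. Each gene is described below by its role, with ligands first.

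**Figure D1:**
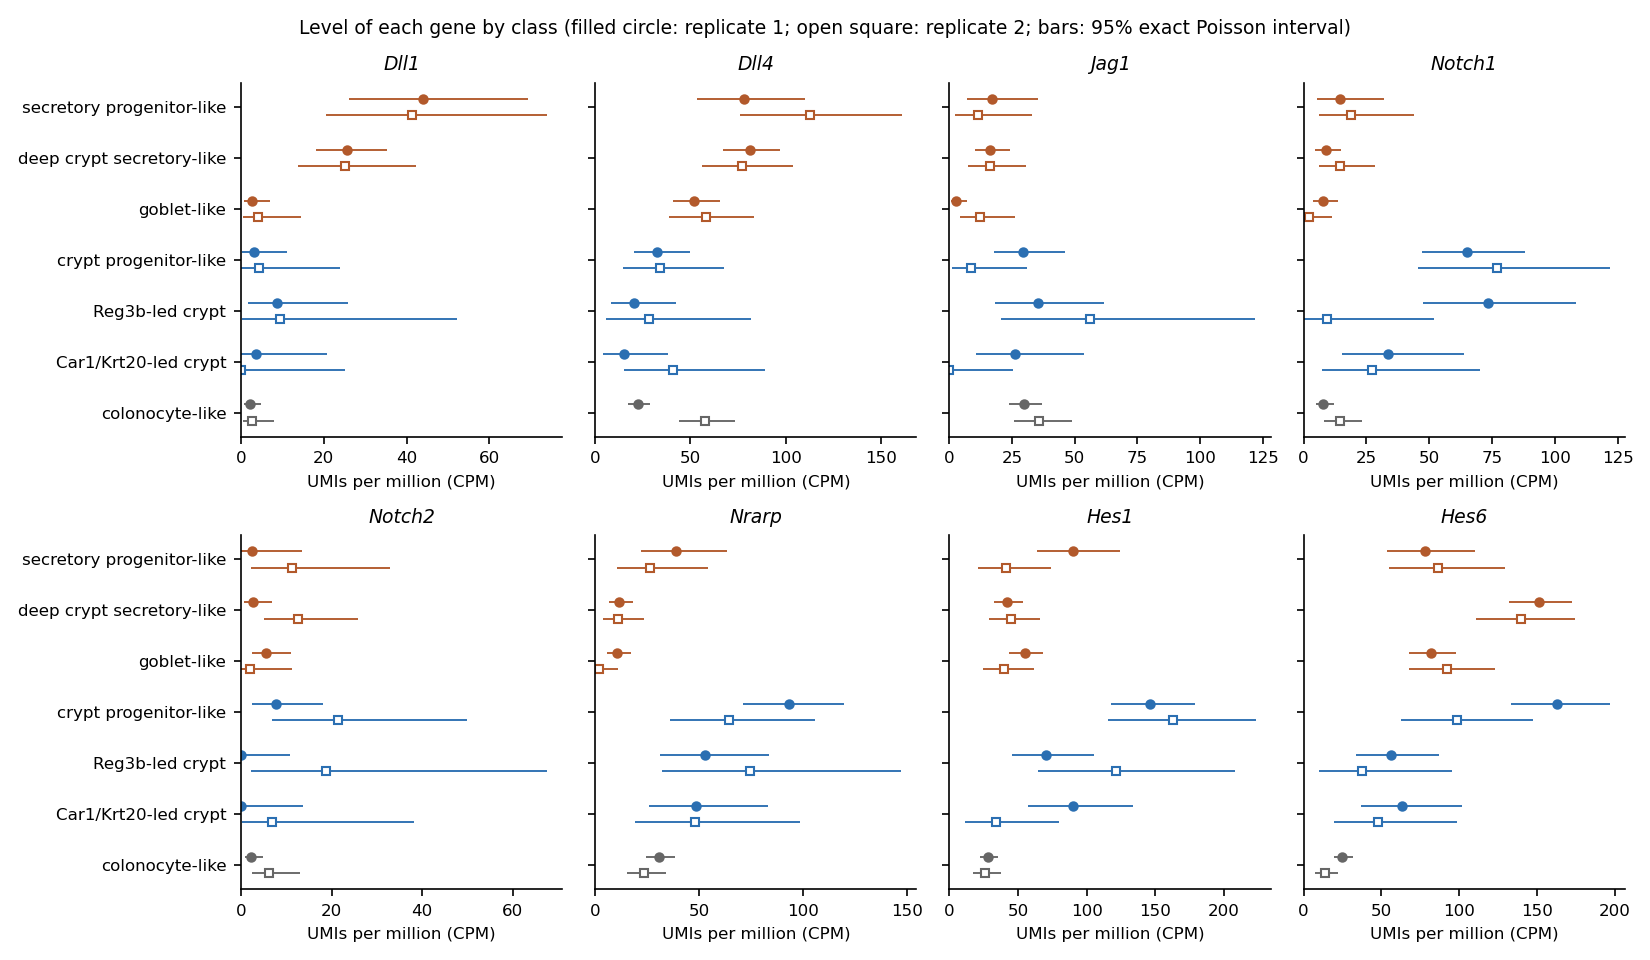
Level of each of the 8 genes, in UMIs per 1000000 UMIs (CPM, x axis), in the 7 epithelial classes (y axis); filled circles are replicate 1, open squares replicate 2, and bars are 95% exact Poisson intervals, which cover counting error only. Dll1 has its highest mean over libraries in secretory progenitor-like cells (43.9 and 41.3 CPM), and Notch1, Nrarp and Hes1 have theirs in crypt progenitor-like cells.

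Dll1 encodes Delta-like 1, a transmembrane ligand of Notch receptors. It was at 43.9 CPM (18 UMIs) and 41.3 CPM (11 UMIs) in secretory progenitor-like cells of replicates 1 and 2, against 3.10 CPM (2 UMIs) and 4.28 CPM (1 UMI) in crypt progenitor-like cells. Both secretory libraries lay above both crypt libraries. With so few crypt UMIs the ratio is wide: it was 14.1 in replicate 1 (95% exact counting interval 3.38 to 126) and 9.64 in replicate 2 (1.40 to 415). The fitted log2 fold change was 3.61 ± 0.74 (SE; edgeR adjusted p = 7.8e-05, 2 libraries per class).

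By cells, a Dll1 UMI was found in 14 of 66 and 9 of 31 secretory progenitor-like cells (21.2% and 29.0%) and in 2 of 101 and 1 of 27 crypt progenitor-like cells (1.98% and 3.70%). When each cell was thinned to 2000 UMIs, which left out 1 secretory and 7 crypt progenitor-like cells, these shares were 10.8% and 6.45% against 0% and 0%. T cell-like cells gave a rough measure of free RNA in the droplets. The class is mixed, so it is not a clean control. In replicate 1 its B or plasma cell markers summed to 53077 CPM and its T cell markers to 20972 CPM. None of 59 held a Dll1 UMI (0), which allows a share of up to 5.08% at a median depth of 1702 UMIs, against a median of 6817 in secretory progenitor-like cells. By library, their 0 UMIs allow up to 29.6 CPM in replicate 1 (53 cells) and up to 245 CPM in replicate 2 (6 cells). The secretory value lay above that limit in replicate 1, and in replicate 2 the limit is too high to compare.

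By mean level, the order of Dll1 over the classes was secretory progenitor-like, deep crypt secretory-like (25.7 and 25.1 CPM), Reg3b-led crypt (8.8 and 9.3 CPM) and then crypt progenitor-like cells. The libraries of each of the first 3 classes did not overlap with those of the next. For the first step the ratio was 1.71 (exact counting interval 0.92 to 3.07) in replicate 1 and 1.64 (0.67 to 3.89) in replicate 2. Each of these intervals includes 1, and over both libraries the ratio was 1.68 (1.03 to 2.69). The step from Reg3b-led to crypt progenitor-like cells rests on few counts, 3 against 2 UMIs in replicate 1 and 1 against 1 UMI in replicate 2. Its ratio was 2.84 (exact counting interval 0.33 to 34.0) in replicate 1 and 2.18 (0.028 to 171) in replicate 2. The step from Reg3b-led to crypt progenitor-like cells is therefore not read as a separation. Goblet-like cells held 2.8 and 4.0 CPM, colonocyte-like cells 2.2 and 2.7 CPM and Car1- and Krt20-led cells 3.7 and 0 CPM. Of all kept cells with a Dll1 UMI, 22.2% (14 of 63) in replicate 1 and 29.0% (9 of 31) in replicate 2 were secretory progenitor-like. Deep crypt secretory-like cells made up 47.6% (30 of 63) and 41.9% (13 of 31). Together these classes held most cells with Dll1, whereas goblet-like cells held few UMIs.

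Dll4 encodes Delta-like 4, the second Delta ligand of the set and, as background, also a gene of sprouting blood vessels. It was at 78.0 CPM (32 UMIs) and 113 CPM (30 UMIs) in secretory progenitor-like cells and at 32.6 CPM (21 UMIs) and 34.3 CPM (8 UMIs) in crypt progenitor-like cells. Both secretory values lay above both crypt values. The log2 fold change was 1.47 ± 0.37 (SE; edgeR adjusted p = 0.0029).

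The spread of Dll4 over the classes was wider than that of Dll1. Deep crypt secretory-like cells held 81.2 and 77.2 CPM, overlapping the range of the secretory progenitor-like libraries, and goblet-like cells held 52.1 and 58.2 CPM. Colonocyte-like cells held 22.3 CPM in replicate 1 and 57.5 CPM in replicate 2, so that this class overlapped both with goblet-like and with crypt progenitor-like cells. T cell-like cells held 2 Dll4 UMIs in each library (4 in all, 35.2 CPM). By library this was 19.7 CPM in replicate 1, below both progenitor classes, and 163 CPM in replicate 2, above both. The part of free RNA in the Dll4 of either progenitor class was not tested. Crypt progenitor-like Dll4, near the level over both libraries, is not read as expression. Secretory progenitor-like Dll4 lay above that level in both libraries, but below the T cell-like value of replicate 2. With 4 UMIs the level is too rough to separate expression from free RNA in either class. Endothelial markers were low in both progenitor classes, with a sum of 34.1 and 56.3 CPM in secretory and 18.6 and 64.2 CPM in crypt progenitor-like cells. The endothelial cadherin Cdh5 had 1 UMI in replicate 1 and 0 in replicate 2 in each class. The part of endothelial RNA was not tested.

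Jag1 encodes Jagged 1, a ligand of the other family. It was at 17.1 CPM (7 UMIs) and 11.3 CPM (3 UMIs) in secretory progenitor-like cells and at 29.5 CPM (19 UMIs) and 8.6 CPM (2 UMIs) in crypt progenitor-like cells. The classes overlapped, and the 2 libraries pointed in opposite directions, with TMM-scaled log2 ratios of -0.73 and 0.44. The fitted log2 difference was -0.61 (95% interval -1.79 to 0.58; edgeR adjusted p = 0.81). Its highest levels were in the Reg3b-led crypt sub-cluster (35.3 and 56.1 CPM) and in colonocyte-like cells (29.8 and 35.9 CPM), and these 2 classes overlapped.

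Notch1, the receptor with the most UMIs of the 2 in the set, had the opposite placement to Dll1 between the progenitor classes. It was at 65.2 CPM (42 UMIs) and 77.1 CPM (18 UMIs) in crypt progenitor-like cells and at 14.6 CPM (6 UMIs) and 18.8 CPM (5 UMIs) in secretory progenitor-like cells. The groups did not overlap. The log2 fold change of secretory over crypt progenitor-like cells was -2.02 ± 0.49 (SE; edgeR adjusted p = 0.0019). It missed the threshold when all class sums were thinned to the depth of the smallest (-1.33, adjusted p = 0.59), and DESeq2 gave no adjusted p for it.

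A Notch1 UMI was present in 31 of 101 and 11 of 27 crypt progenitor-like cells (30.7% and 40.7%) and in 4 of 66 and 3 of 31 secretory progenitor-like cells (6.06% and 9.68%). Thinned to 2000 UMIs per cell, the shares were 13.8% and 7.41% in crypt and 0% and 6.45% in secretory progenitor-like cells. The thinned shares thus stood far apart in replicate 1 and close together in replicate 2. In the remaining classes Notch1 was at 33.6 and 27.3 CPM in the Car1- and Krt20-led sub-cluster, 8.8 and 14.4 CPM in deep crypt secretory-like, 7.8 and 14.4 CPM in colonocyte-like and 7.6 and 2.0 CPM in goblet-like cells. The Reg3b-led sub-cluster held 73.5 CPM (25 UMIs) in replicate 1 and 9.3 CPM (1 UMI) in replicate 2, so its place in the order is not fixed. T cell-like cells, which use Notch1 themselves, held 7 UMIs.

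Notch2, a second receptor, was too sparse to place. It had 50 UMIs over the 14 class sums, with 7.8 and 21.4 CPM in crypt progenitor-like and 2.4 and 11.3 CPM in secretory progenitor-like cells. The libraries of these classes overlapped. The log2 difference of -1.04 had a 95% interval of -2.88 to 0.80 (edgeR adjusted p = 0.77). Every pair of neighbouring classes in its order overlapped.

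Hes1 encodes the repressor through which Notch holds back Atoh1. It was at 146 CPM (94 UMIs) and 163 CPM (38 UMIs) in crypt progenitor-like cells and at 90.2 CPM (37 UMIs) and 41.3 CPM (11 UMIs) in secretory progenitor-like cells. The groups did not overlap, though the 2 libraries of the secretory class differed by more than the 2 of the crypt class. The log2 fold change of secretory over crypt progenitor-like cells was -1.07 ± 0.30 (SE; edgeR adjusted p = 0.013), with TMM-scaled values of -0.68 in replicate 1 and -1.79 in replicate 2. It missed the threshold without the replicate block (adjusted p = 0.21), with thinned sums (0.15) and when the Reg3b-led and the Car1- and Krt20-led sub-clusters were added to the crypt progenitors (0.10).

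A Hes1 UMI was found in 52 of 101 and 17 of 27 crypt progenitor-like cells (51.5% and 63.0%), against 19 of 66 and 8 of 31 secretory progenitor-like cells (28.8% and 25.8%). After thinning the shares were 27.7% and 18.5% against 9.23% and 6.45%. By mean level Hes1 was next in the Reg3b-led sub-cluster (70.6 and 122 CPM), then in secretory progenitor-like cells and then in the Car1- and Krt20-led sub-cluster (89.6 and 34.2 CPM), and the libraries of each of these overlapped with the next. It was low in colonocyte-like cells (28.3 and 26.0 CPM). None of the 59 T cell-like cells held a Hes1 UMI (0, which allows up to 29.6 CPM in replicate 1 and 245 CPM in replicate 2).

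Nrarp encodes a small ankyrin-repeat protein that Notch induces and that in turn dampens Notch. It was at 93.1 CPM (60 UMIs) and 64.2 CPM (15 UMIs) in crypt progenitor-like cells and at 39.0 CPM (16 UMIs) and 26.3 CPM (7 UMIs) in secretory progenitor-like cells. Both crypt values lay above both secretory values. The log2 difference of -1.22 (95% interval -2.0 to -0.44) narrowly missed the threshold (edgeR adjusted p = 0.053). It passed under 6 of the 11 alternatives, with adjusted p from 0.0016 to 0.35 over all of them.

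The Reg3b-led sub-cluster held 52.9 and 74.8 CPM, overlapping crypt progenitor-like cells. The Car1- and Krt20-led sub-cluster held 48.5 and 47.9 CPM, colonocyte-like cells 30.9 and 23.3 CPM, deep crypt secretory-like cells 11.5 and 10.8 CPM and goblet-like cells 10.4 and 2.0 CPM. Secretory progenitor-like cells, which overlapped with colonocyte-like cells, thus held more Nrarp than either deep crypt secretory-like or goblet-like cells. T cell-like cells held 2 Nrarp UMIs in replicate 1 (19.7 CPM) and 0 in replicate 2. Their replicate 1 level lay above those of deep crypt secretory-like and goblet-like cells. The part of free RNA in these Nrarp levels was not tested.

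Hes6 encodes a HES family protein that lacks the repressor action of HES1 and is known to promote differentiation in other tissues. It did not follow Hes1. Crypt progenitor-like cells held 163 CPM (105 UMIs) and 98.5 CPM (23 UMIs), deep crypt secretory-like cells 152 and 140 CPM, goblet-like cells 82.0 and 92.2 CPM and secretory progenitor-like cells 78.0 CPM (32 UMIs) and 86.3 CPM (23 UMIs). Crypt progenitor-like and deep crypt secretory-like cells overlapped, as did goblet-like and secretory progenitor-like cells. The log2 difference between the progenitor classes was -0.70 (95% interval -1.27 to -0.13; edgeR adjusted p = 0.21), with TMM-scaled values of -1.05 and -0.05 in the 2 libraries. Colonocyte-like cells were lowest, at 25.0 and 13.5 CPM. T cell-like cells held 8 Hes6 UMIs (70.4 CPM over both libraries), more than colonocyte-like cells. That level also lay above the Reg3b-led (55.9 and 37.4 CPM) and the Car1- and Krt20-led sub-clusters (63.5 and 47.9 CPM). It was near that of secretory progenitor-like and goblet-like cells. The part of free RNA in these Hes6 levels was not tested.

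The summed UMIs of Dll1 and Dll4 were at 122 and 154 CPM in secretory progenitor-like and at 107 and 102.3 CPM in deep crypt secretory-like cells. All other epithelial classes tested stood between 18.7 and 62.2 CPM. Hes1 and Nrarp together reached 239 and 227 CPM in crypt progenitor-like cells, 129 and 67.6 CPM in secretory progenitor-like cells and 53.4 and 55.7 CPM in deep crypt secretory-like cells. Every other class tested had a target sum below that of crypt progenitor-like cells in both libraries, including colonocyte-like (59.2 and 49.4 CPM) and goblet-like cells (65.3 and 42.1 CPM), whose Delta sums were lower.

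**Figure D2:**
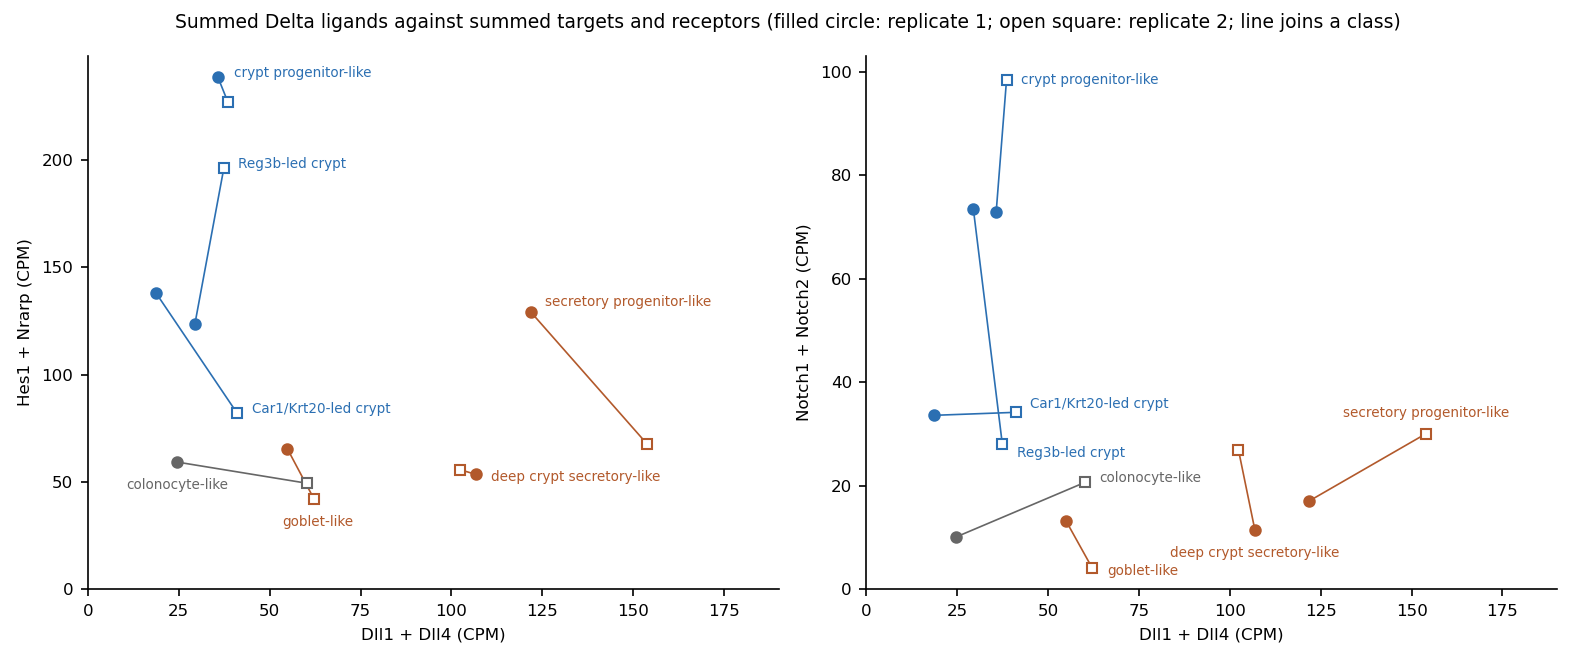
Summed level of Dll1 and Dll4 (x axis, CPM) against the summed level of Hes1 and Nrarp (left) or Notch1 and Notch2 (right; y axes, CPM) in the 7 epithelial classes; filled circles are replicate 1, open squares replicate 2, and a line joins the libraries of a class. Crypt progenitor-like cells sit at the upper left (239 and 227 CPM of targets at 35.7 and 38.5 CPM of ligands) and secretory progenitor-like cells to the right (122 and 154 CPM of ligands).

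Single cells were then examined for ligand and receptor together. Of all 2282 kept cells, 94 held a Dll1 UMI and 159 a Notch1 UMI, and 8 held both. Notch1 was thus found in 8.51% of cells with Dll1 (95% exact binomial interval 3.75 to 16.1%) and in 6.90% of cells without it. The cells with Dll1 were deeper, with a median of 6601 UMIs against 4284.5, which raises the chance of finding any gene. Of the 94 cells with Dll1, 68 (72.3%) held Atoh1, against 30.4% of cells without Dll1. After thinning, 15 of 34 cells with Dll1 held Atoh1, against 23.5% of the others. For Dll4 the shares were 47.9% and 18.1%. After thinning, however, 3 of 34 cells with Dll1 held Dll4, against 9.11% of the others, too few cells to show a difference at matched depth. These shares pool all classes. Most cells with Dll1 were secretory progenitor-like or deep crypt secretory-like, where Atoh1 was at 324 and 368 CPM and at 465 and 377 CPM. In colonocyte-like cells Atoh1 was at 10.4 and 7.2 CPM. The part of class mix in these shares was not tested.

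Cells with Notch1 held Hes1 in 35.8% (57 of 159) and Nrarp in 18.9% (30 of 159), against 16.8% and 8.90% of cells without Notch1. Their median depths were 7349 and 4248 UMIs. At matched depth, 6 of 58 cells with Notch1 held Hes1, against 8.47% of cells without it. Within the crypt progenitor-like class, 28 of 42 cells with Notch1 held Hes1 (66.7%, 95% exact binomial interval 50.5 to 80.4%), against 47.7% of those without, at median depths of 7459 and 6166.5 UMIs. Cells are not replicates, and these shares are descriptions.

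**Figure D3:**
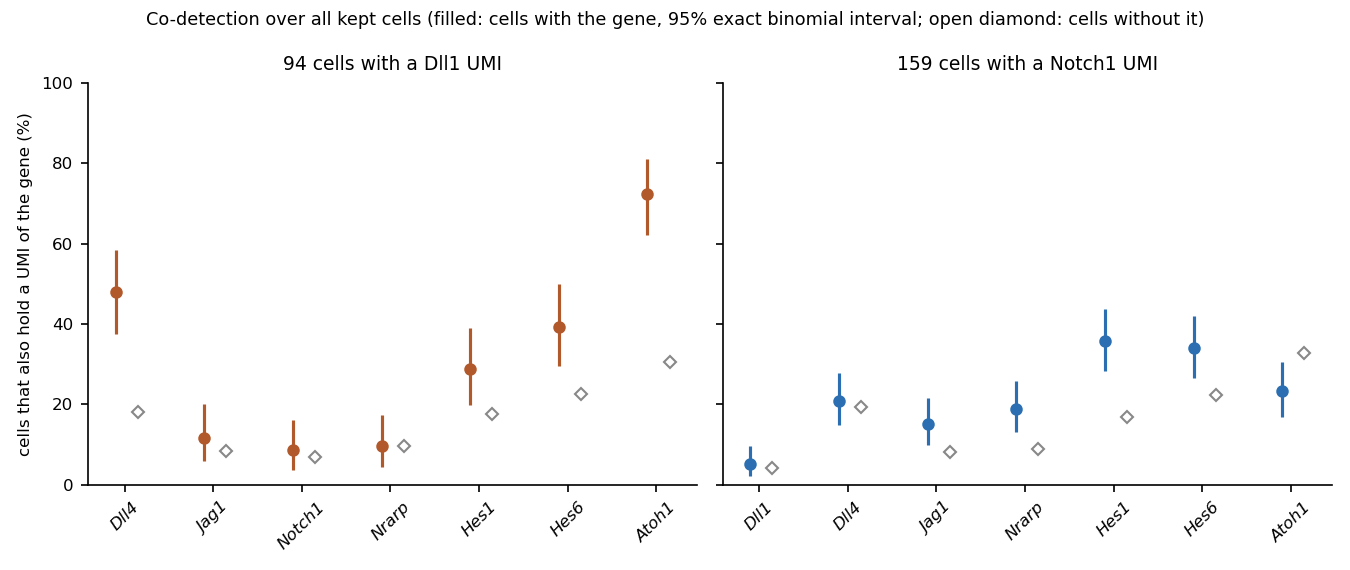
Share of cells that also hold a UMI of the gene on the x axis, among 94 cells with a Dll1 UMI (left) and 159 cells with a Notch1 UMI (right); filled points are cells with the gene, with 95% exact binomial intervals, and open diamonds are all other kept cells. The highest share is that of Atoh1 among cells with Dll1 (72.3%), and these shares are not matched for depth or class.

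The secretory and absorptive classes with fewer cycling UMIs were compared with the same crypt progenitor-like cells. Their summed cycling markers were at 430 and 363 CPM in deep crypt secretory-like, 112 and 118 CPM in goblet-like and 100.2 and 115 CPM in colonocyte-like cells. All 4 comparisons with crypt progenitor-like cells share those sums, and a chance high or low value there would appear in all of them. In deep crypt secretory-like cells Dll1 and Dll4 were higher and Notch1, Nrarp and Hes1 lower, 5 of the 8 genes, where 13.8% of all genes passed (8.18% higher, 5.58% lower). Of those calls 59.5% were higher, and 40.5% without TMM scaling. Dll1 rose by 3.02 ± 0.72 (log2 fold change ± SE; edgeR adjusted p = 4.2e-04) and Dll4 by 1.45 ± 0.33 (1.9e-04). Notch1 was at -2.49 ± 0.42, Nrarp at -2.67 ± 0.39 and Hes1 at -1.61 ± 0.28 on the log2 scale. Hes6, at 0.30 (95% interval -0.16 to 0.76; adjusted p = 0.51), did not pass, but it passed as higher under 3 of 11 alternatives (0.67 to 0.89), and its log2 ratios by library were 0.06 and 0.77. With thinned sums Dll4, Notch1 and Hes1 missed the threshold (adjusted p = 0.19, 0.12 and 0.18).

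In goblet-like cells Dll4 passed as higher and Dll1 did not pass. Dll4 was higher than in crypt progenitor-like cells by 1.23 ± 0.35 (log2 fold change ± SE; edgeR adjusted p = 0.0025), whereas the Dll1 difference was 0.38 (95% interval -1.69 to 2.45; adjusted p = 0.86). Notch1 (-2.93 ± 0.47), Nrarp (-2.83 ± 0.42), Hes1 (-1.08 ± 0.27) and Jag1 (-1.57 ± 0.59; adjusted p = 0.035) were lower. These were 1 gene higher and 4 lower of 8, where 13.8% of all genes were higher and 11.7% lower (25.6% in all). Of those calls 54.1% were higher, and 26.5% without TMM scaling, under which the sign of the Dll1 difference also turned (-0.13). The Dll4 call was lost without TMM scaling (0.69, adjusted p = 0.13) and with thinned sums (adjusted p = 0.34). The Jag1 call rested on replicate 1: from replicate 2 alone the log2 ratio was 0.83.

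In colonocyte-like cells, the absorptive class, Notch1 and the 3 genes Hes1, Hes6 and Nrarp were below crypt progenitor-like cells. Notch1 was at -2.19 ± 0.38, Hes1 at -1.89 ± 0.27, Hes6 at -2.16 ± 0.27 and Nrarp at -0.98 ± 0.31 (log2 fold change ± SE; edgeR adjusted p = 0.0066 for Nrarp and lower for the other 3). Jag1 was higher by 1.03 ± 0.40 (adjusted p = 0.034). This was 1 gene higher and 4 lower of 8, where 18.0% of all genes were higher and 15.3% lower (33.3% in all). Of those calls 54.2% were higher, and 28.7% without TMM scaling. Dll1 (0.04, and -0.50 without TMM scaling) and Dll4 (0.59; adjusted p = 0.19) did not pass. Dll4 passed as higher under 2 of 11 alternatives, without the doublet filter (1.04, adjusted p = 0.0058) and with all crypt sub-clusters but the secretory one as crypt progenitors (0.74, 0.038), and its log2 ratios by library were 0.02 and 1.23. The Jag1 call was lost under 7 of 11 alternatives and its sign turned with thinned sums (-0.70, adjusted p = 0.74), so no direction is given for it. With thinned sums Notch1 and Nrarp missed the threshold (adjusted p = 0.085 and 0.072).

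Secretory classes with more and fewer cycling UMIs were compared by setting secretory progenitor-like cells against the mean of deep crypt secretory-like and goblet-like cells. Dll1 was higher in secretory progenitor-like cells by 1.91 ± 0.47 (log2 fold change ± SE; edgeR adjusted p = 9.4e-04) and Nrarp by 1.53 ± 0.45 (0.0084), and Hes6 was lower (-0.77 ± 0.25; 0.020). These were 3 of 8 genes, where 12.0% of all genes passed (6.14% higher, 5.89% lower). Of those calls 51.0% were higher, and 78.0% without TMM scaling. The Dll1 ratio to deep crypt secretory-like cells was 1.71 (95% exact counting interval 0.92 to 3.07) in replicate 1 and 1.64 (0.67 to 3.89) in replicate 2, and that to goblet-like cells 15.8 (5.20 to 64.1) and 10.3 (2.25 to 95.6). Dll4 (0.14; adjusted p = 0.86), Hes1 (0.27) and Notch1 (0.69) did not pass. The Nrarp call was lost at a finer clustering (adjusted p = 0.094) and with thinned sums (0.68). The Hes6 call was lost under 5 of 11 alternatives, among them the fit without the replicate block (adjusted p = 0.20).

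**Figure D4:**
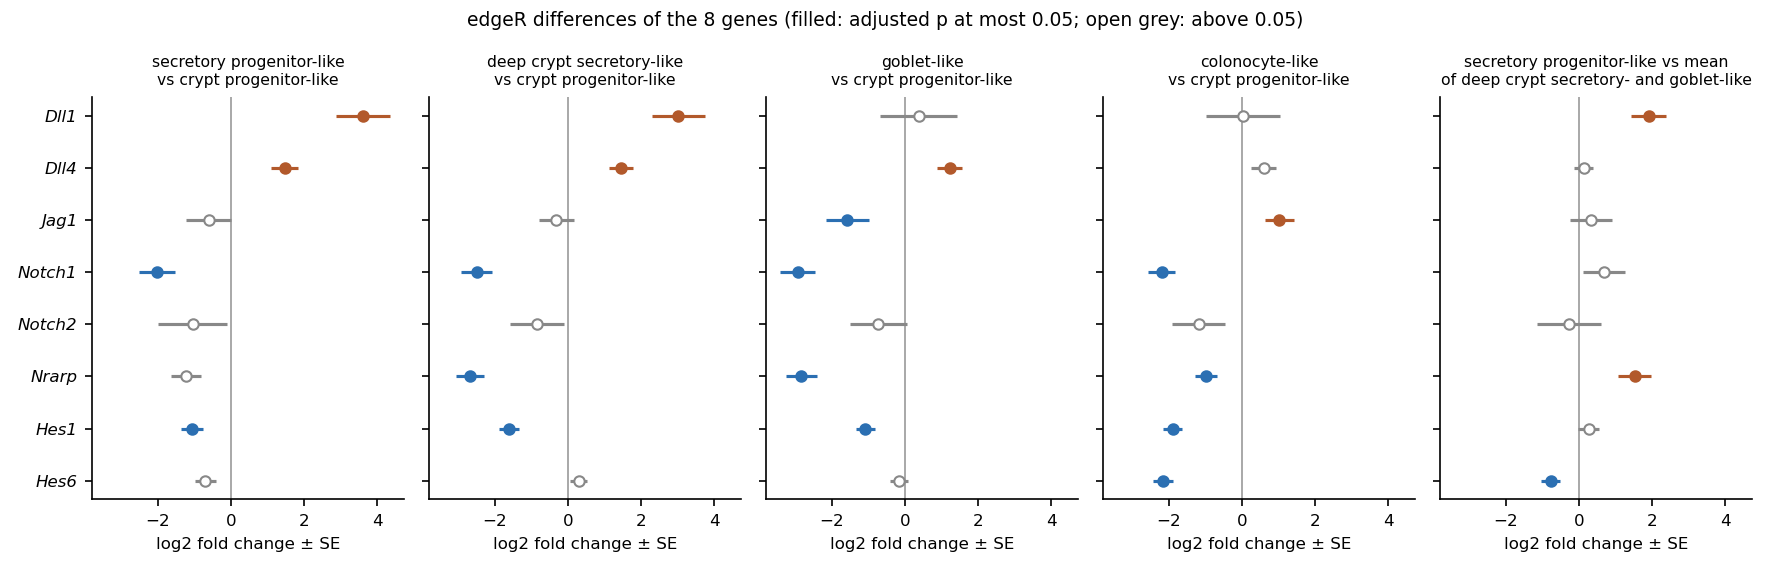
Log2 fold change ± SE (x axis) of the 8 genes (y axis) in the 5 comparisons, from edgeR; filled points passed an adjusted p of at most 0.05, and the first 4 panels share crypt progenitor-like cells. Dll1 and Dll4 lie to the right and Notch1 and Hes1 to the left in the comparison of progenitors (3.61, 1.47, -2.02 and -1.07).

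Of 51 further pathway genes tested between the progenitor classes (57 listed), Dlk1 passed as higher and Nedd4 as lower in secretory progenitor-like cells. This count of 2 is near the share of all genes that passed (3.96%). None of 8 genes of ligand endocytosis, 5 of receptor glycosylation, 10 of receptor cleavage and 11 of the nuclear complex passed (0 by edgeR and 0 by DESeq2 in each list). At an unadjusted p under 0.05, 2, 1, 0 and 0 of them did. Their median log2 differences were -0.47, 0.27, -0.11 and -0.19, where all genes tested had a median of 0.03. Rbpj, the DNA-binding partner of the receptor fragment, had a difference of -0.26, the sheddase Adam10 -0.11 and the ubiquitin ligase Mib1, which is needed to internalise ligand, -0.43. Lfng, a glycosyltransferase that tunes receptors towards Delta ligands, had 10 UMIs against 3 (2.09 on the log2 scale, adjusted p = 0.32).

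Nedd4, a ubiquitin ligase, was at 390 and 251 CPM in secretory and 573 and 432 CPM in crypt progenitor-like cells. Both crypt values lay above both secretory values, and the log2 fold change was -0.60 ± 0.18 (SE; edgeR adjusted p = 0.033). The Nedd4 call was lost under 7 of 11 alternatives, among them DESeq2 (adjusted p = 0.26) and the fit without the replicate block (0.70). Dlk1 encodes a non-canonical Delta-like protein that lacks the domain with which Delta and Jagged ligands bind Notch. It was at 21.9 CPM (9 UMIs) and 251 CPM (67 UMIs) in secretory and at 6.2 and 8.6 CPM in crypt progenitor-like cells. In replicate 2, 52 of its 67 UMIs came from 1 cell, so its log2 fold change of 3.99 rests largely on that cell; from replicate 1 alone it was 1.73.

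The transcription factors of the secretory lineage, downstream of Notch, differed between the classes. Of 9 tested, 7 were higher in secretory progenitor-like cells and 2 lower, with a median log2 difference of 1.63. Over all genes, 2.97% were higher and 0.99% lower. Secretory progenitor-like cells were named by goblet and deep crypt secretory markers, so this count is not independent of the naming. DESeq2 called 6 of the 9; Foxa2 and Sox4 missed its threshold (adjusted p = 0.077 and 0.061) and Neurog3 got no adjusted p. Atoh1, the master factor of the lineage, was at 324 and 368 CPM in secretory and 51.2 and 12.8 CPM in crypt progenitor-like cells (log2 fold change 3.23 ± 0.27, SE; edgeR adjusted p = 1.4e-29). Spdef (2.82 ± 0.39) and Gfi1 (2.45 ± 0.50), which act after Atoh1 in goblet and Paneth cell fate, were higher, as were Creb3l4 (2.57 ± 0.47), Creb3l1 (1.63 ± 0.19), Foxa2 (1.03 ± 0.32) and Foxa1 (1.02 ± 0.26). The calls of Foxa2 and Foxa1 were lost without the replicate block (adjusted p = 0.26 and 0.22), and with thinned sums they, Gfi1 and Creb3l4 missed the threshold.

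Neurog3, the factor of the enteroendocrine lineage, and Sox4 passed as lower in secretory progenitor-like cells. Neurog3 had 16 and 1 UMIs in crypt and 0 and 1 UMIs in secretory progenitor-like cells, and 15 of the 16 came from 1 cell, so its call (edgeR adjusted p = 0.031) rests on that cell. Sox4 was at 317 and 146 CPM in crypt and 70.7 and 113 CPM in secretory progenitor-like cells (log2 fold change -1.42 ± 0.28, SE; edgeR adjusted p = 2.95e-05). Of its 30 secretory UMIs in replicate 2, 16 came from 1 cell, and its log2 ratio was -2.14 in replicate 1 and -0.23 in replicate 2. The Sox4 call was also lost with other choices of crypt progenitors, at adjusted p = 0.17 with the 2 further sub-clusters and 0.45 when the cycling-led cluster alone was divided.

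**Figure D5:**
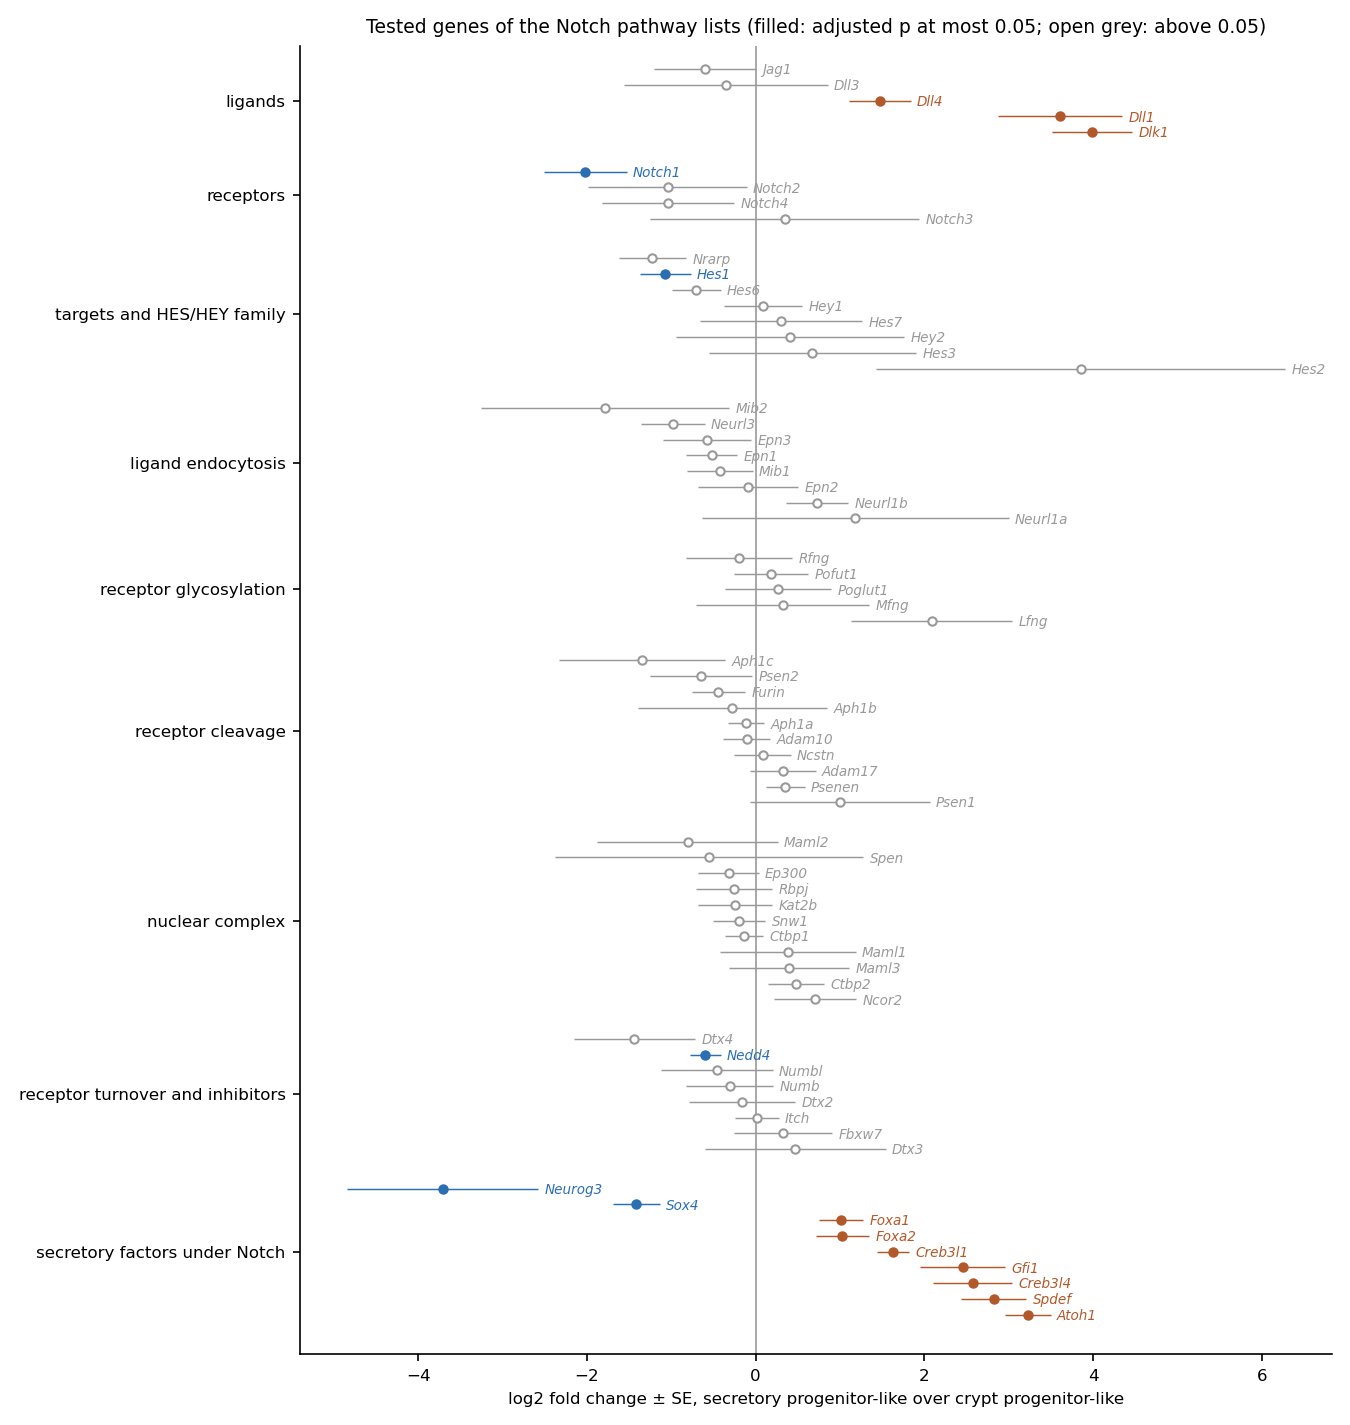
Log2 fold change ± SE of secretory progenitor-like over crypt progenitor-like cells (x axis) for every tested gene of the Notch pathway lists and of the secretory factors (y axis, grouped by list), from edgeR; filled points passed an adjusted p of at most 0.05. The calls fall among ligands, receptors, targets, turnover genes and secretory factors, with 0 in ligand endocytosis, glycosylation, cleavage and the nuclear complex; Dlk1 and Neurog3 rest largely on 1 cell each.

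Genes outside the lists whose levels ran most like each Notch gene were read from the 14 sums of class and library. The measure was Pearson's r of log2 values with 10 CPM added. It was taken among 4605 genes of at least 100 UMIs that were not on the side used to group cells. Cell type markers and the other genes of that side could therefore not appear. The points share libraries and crypt lineages, so these values are descriptions. Dll1 ran most like Golm1 (r = 0.92), Pomt1 (0.87) and Cxxc5 (0.87), and Dll4 ran like Cma1 (0.89) and Slc22a15 (0.88). Jag1 ran most like Pdzd8 (0.85), Tac1 (0.83) and C5orf46 (0.82), and Notch1 like Eif4ebp2 (0.89), Scpep1 (0.89) and Degs1 (0.88). Nrarp was most like Smad4 (0.93), Kitl (0.92) and Mgst1 (0.92) and Hes6 most like Cops7b (0.93), Klhdc2 (0.89) and E330009J07Rik (0.88). Hes1 ran like Utp6 (0.89) and Rnf4 (0.87). No gene named here appeared for more than 1 of the 7 Notch genes, and Notch2 was too sparse.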

How the data were processed

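The authors deposited whole-number counts of UMIs per gene and barcode without normalization, 8602490 UMIs in replicate 1 and 3951918 in replicate 2. Per the submitters' processing notes, reads were referred to GRCh38 and GRCm38. For the aligner, annotation, counting strand and barcode filter, the tool or setting was not given in the sources used here, so counts of overlapping and antisense genes are uncertain.

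Barcodes of at least 500 UMIs and 250 genes were kept (all passed), and the 5% with the highest doublet score (simulated pairs) were left out of each library. A hash (md5) of each symbol assigned 12748 genes to clustering and 12756 to testing. Cell type markers were always on the clustering side, the pathway lists and mitochondrially encoded genes on the testing side. Both libraries were clustered together by the Leiden method (resolution 1, 30 components, 1500 variable genes) and clusters were named from markers. A cluster needed a score of at least 0.75 and markers of its class among its 15 leading genes. Stem- and cycling-led clusters were pooled and divided again at resolution 0.5.

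UMIs were summed per library and class (14 sums of 107008 to 2685230 UMIs). The 7982 testing genes with at least 20 UMIs were fitted with edgeR 4.0.16 (R 4.3.3, TMM), blocking on library. The pairing is by construction, since every class was drawn from both libraries, and 6 residual degrees of freedom remained. CPM is UMIs per 1000000 UMIs of the class in that library. Intervals of levels, ratios and shares are 95% exact Poisson or binomial, those of log2 differences are Wald intervals from the SE, and the limit of a count of 0 is 3 counts. The exact intervals and the limit cover counting error only. Alternatives were other size factors, no TMM, no block, no count filter, DESeq2 1.42.0, thinning, no doublet filter, other resolutions, other crypt classes and each library alone. The edgeR fit was run on simulated data. There, all classes shared the same mean profile and dispersion, apart from chosen genes changed in the secretory progenitor-like sums. The simulation therefore does not show how the fit behaves with the class differences of the real data. Clustering used leidenalg 0.10.2 in Python 3.11.15; scipy 1.17.1, numpy 2.4.6 and pandas 2.3.3 served for the rest.

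The genes named are the 8 Notch genes, every listed pathway gene that passed between the progenitor classes, and the 3 genes most like each Notch gene of at least 100 UMIs, of which 1 for Dll4 and 1 for Hes1 are not reported here. The genes and lists were chosen with earlier results of these data known. Rbpj, Adam10, Mib1 and Lfng were named after their values were seen. Gene positions and sequences were not used here.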

Additional observations from a re-analysis of the deposited data

How the results depend on the processing

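In secretory against crypt progenitor-like cells, Dll4 passed under all 11 alternatives (log2 1.41 to 2.34) and Dll1 under all 9 that gave a value (3.10 to 3.75). DESeq2 gave no adjusted p for Dll1 and thinned sums left it under the count minimum. The count of genes called there moved from 316 to 130 without the replicate block, 143 with sums thinned to the smallest and 533 with the Reg3b-led and the Car1- and Krt20-led sub-clusters among crypt progenitors. The share of calls that were higher was 75.0% at first and 57.0% with those sub-clusters, a setting chosen after seeing the data, as were the fit without TMM and the sub-clusters of the cycling-led cluster alone. For deep crypt secretory-like cells the count moved from 1098 to 611 without the replicate block, 720 with DESeq2 and 380 with thinned sums. Thinned sums gave 758 for goblet-like cells in place of 2041, 932 for colonocyte-like cells in place of 2657, and 353 in place of 960 for secretory progenitor-like against the mean of the other secretory classes, where 522 passed without the replicate block. The 2 Jag1 calls changed sign, to 0.83 in goblet-like cells from replicate 2 alone (-2.74 from replicate 1 alone) and to -0.70 in colonocyte-like cells with thinned sums. Jag1 differences that had not passed also differed in sign between libraries: -0.73 and 0.44 between the progenitors, -0.70 and 0.95 in deep crypt secretory-like cells and 0.99 and -0.46 against the mean of the other secretory classes. The cause of these moves was not tested, except that thinned sums hold fewer UMIs. Without the replicate block, calls were also lost for Hes1 in the progenitors, Jag1 in goblet- and colonocyte-like cells (adjusted p = 0.098 and 0.096) and Hes6 against the mean of the other secretory classes, and no other call of the 8 genes changed. Leaving out each library gave log2 ratios without a test: 2.89 to 3.54 for Dll1, 1.25 to 1.79 for Dll4, -2.06 to -1.80 for Notch1, -1.79 to -0.68 for Hes1 and -1.22 to -1.10 for Nrarp between the progenitors. Without TMM scaling the median log2 difference of all genes moved by -0.56 in colonocyte-like, -0.53 in goblet-like and -0.21 in deep crypt secretory-like cells and by 0.31 against the mean of the other secretory classes. Depth limits Dll1 (3 UMIs in crypt progenitor-like cells), Jag1 (2 UMIs there in replicate 2) and Notch2 (50 UMIs over all sums).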

Other observations

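Some cells carried Notch genes outside the classes compared above. A cluster of 98 cells that took no cell type name held Dll4 at 41.1 CPM (3 UMIs, 43 cells) in replicate 1 and at 158 CPM (29 UMIs, 55 cells) in replicate 2, the latter above each library of the 7 classes tested. Its median depth was 1387 and 2822 UMIs, and its libraries differed, so it is given as values only. The T cell-like class held Notch1 in 7 of 59 cells (11.9%, 95% exact binomial interval 4.91 to 22.9%), at 61.6 CPM over both libraries, close to crypt progenitor-like cells, while Dll1, Jag1 and Hes1 were at 0 UMIs there. Igha led that class in part, so it is not pure. Tuft-like cells (12) were too few to describe.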
